A study of Homo sapiens with 12 samples.

Results

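The genes described here are the nuclear genes for subunits of the 5 complexes of oxidative phosphorylation. Members were taken by symbol and not by their own values, although the rule was set with earlier results of these data known. The rule takes protein-coding genes of the NDUFA, NDUFB, NDUFC, NDUFS and NDUFV families (complex I) and SDHA to SDHD (complex II). It also takes the UQCR genes and CYC1 (complex III) and the COX4I, COX5, COX6, COX7 and COX8 genes (complex IV). The ATP5F1, ATP5M and ATP5P genes stand for complex V, and assembly factors of the NDUFAF and SDHAF families are left out. Of the 16299 genes in the expression table, 81 met the rule, with 38 in complex I, 4 in complex II, 10 in complex III, 12 in complex IV and 17 in complex V. They lie on 22 chromosomes, with 10 on chromosome 19 and 7 each on chromosomes 1 and 11. Another 9 protein-coding genes of the rule have no row in the table and are not analysed here, among them NDUFA7 and the tissue-restricted isoform genes COX4I2, COX6A2, COX7A1, COX7B2 and COX8C.

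Complexes I and II pass electrons from NADH and succinate to coenzyme Q, complex III passes them on to cytochrome c, and complex IV passes them to oxygen. The proton gradient made by complexes I, III and IV drives complex V, the ATP synthase. Complexes I, III, IV and V are built from subunits of 2 genomes, with a few catalytic subunits made inside the mitochondrion, whereas all 4 subunits of complex II are nuclear. When oxygen is low, the transcription factor HIF-1 is known to change some of these subunits, for example by inducing NDUFA4L2, and to divert pyruvate from the mitochondrion through PDK1.

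PANC1 and BXPC3 are established human pancreatic cancer cell lines, and their poly-A RNA was sequenced in 6 groups of 2 libraries, 12 in all. For each line these were cells in 7.5% GelMA, cells in 5% GelMA and cells in collagen, where GelMA is gelatin methacryloyl, a modified gelatin that can be cross-linked into a gel. The growth protocol gives high glucose medium with serum for both lines, and neither line carries an engineered allele or a drug in the labels. The sources used here do not give gel stiffness, time in the gel or whether replicates are separate cultures, so the spread behind each p-value is that between libraries and may be technical.

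Gene coordinates are those of the GENCODE 29 annotation on GRCh38. All levels are log2 RPKM (reads per kilobase of gene, scaled to the size of the library) as deposited, and differences are differences of mean log2 RPKM with their standard error (SE). Adjusted p-values are from limma, fitted to all 12 libraries and adjusted by Benjamini-Hochberg over 15794 genes, those that reached 1 RPKM in 2 or more libraries. A member is called where its adjusted p is under 0.05. Of the 81 members 80 were tested. The other, NDUFV2, stayed under 1 RPKM in all but 1 library, with a highest value of 0.07. The depth of the libraries is unknown, since the values are not counts. Replicates correlated at 0.9922 to 0.9950 across genes. SMAD4, a gene that BXPC3 lacks, was at 3.94 to 4.55 in PANC1 libraries and at -5.92 to -5.35 in BXPC3 libraries. Epithelial genes did not all go the same way between the lines. KRT19 was at 9.72 to 10.57 in PANC1 and 11.73 to 11.83 in BXPC3, and CDH1 and EPCAM were also lower in PANC1. The keratin genes KRT8 and KRT18 were higher in PANC1, at 10.37 to 11.16 and 11.10 to 11.69. In BXPC3 they were at 9.64 to 10.27 and 10.39 to 10.83. Across the members, the median of replicate 1 minus replicate 2 was 0.13 in PANC1 in collagen, and between -0.02 and 0.05 in the other 5 groups. The PANC1 collagen pair enters every PANC1 comparison of GelMA with collagen. Member counts are given with and without each of its libraries, and lost calls are stated for members recomputed under the alternatives. No such check is given for members not named by rule, among them NDUFS8, NDUFB1 and NDUFB5. Nor is it given for the lists of other genes that serve respiration. In bulk RNA, fewer cells with a transcript and less of it per cell cannot be told apart.

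Most members were strongly expressed. The median of the 81 mean levels was 5.50, against 4.28 for all 13764 protein-coding genes in the table, and 52 members lay above 5. ATP5F1B, the catalytic beta subunit of the ATP synthase head, was highest at 9.79, followed by CYC1, the cytochrome c1 of complex III. NDUFV2, an iron-sulphur core subunit of complex I, was lowest at -0.89. The low end of the list was set apart by the annotation: 19 members share at least 5% of their exon bases with another gene annotated on the same strand, and 11 of the 12 lowest members were among these 19, but 2 of the 40 highest. Their median level was 2.49, against 5.99 for the other 62. Over all protein-coding genes the same split gave 2.99 for the 1226 that share and 4.40 for the rest. NDUFB8, which shares 33.8% of its exon bases, had a mean of 0.70, COX6B2, with 30.9%, had 2.34, and ATP5PO, with 19.6%, had 1.30. The sources used here do not give how reads in shared exons were assigned, so the levels of these 19 genes are uncertain. NDUFA4L2 is the exception among the 12 lowest, with no shared bases.

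**Figure D1:**
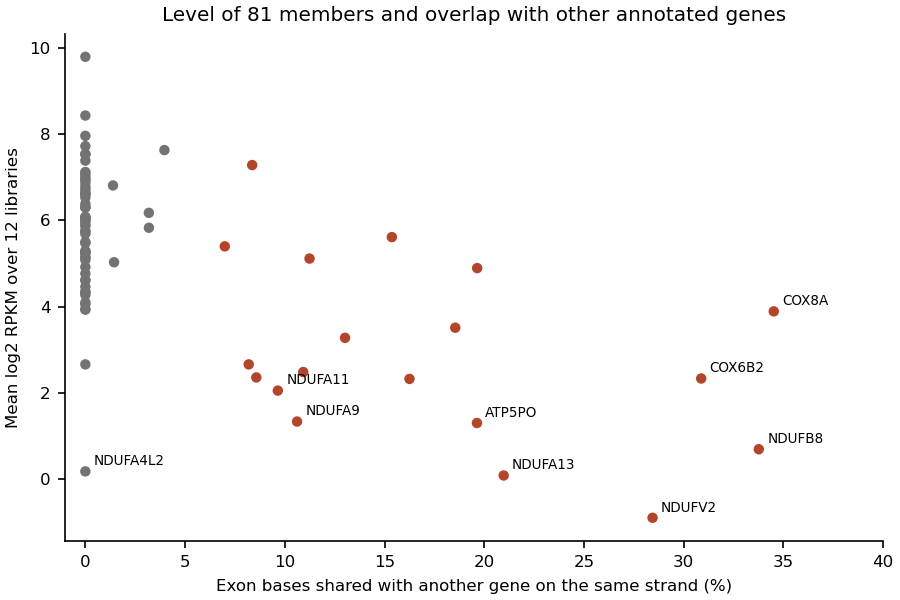
Mean log2 RPKM over the 12 libraries (vertical) against the percent of exon bases shared with another gene on the same strand (horizontal), 1 point for each of the 81 members. Red points are the 19 members at 5% or more, and they hold 11 of the 12 lowest levels.

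The effect of the matrix was asked first in PANC1. There the subunit genes did not move together. Of 80 tested members 21 (26.2%) were higher and 18 (22.5%) lower in GelMA (mean of 7.5% and 5%) than in collagen, and the background over all 15794 genes was 27.7% higher and 27.4% lower. The median difference was 0.01, against -0.01 over all genes tested. Taken separately against the same collagen libraries, 7.5% GelMA gave 28 (35%) higher and 15 (18.8%) lower, with a background of 27.2% and 26.6%. At 5% GelMA 7 (8.75%) were higher and 18 (22.5%) lower, with a background of 23.0% and 23.2%. Without PANC1 collagen replicate 1 the counts were 28 higher and 11 lower, and without replicate 2 they were 9 higher and 23 lower, so the balance of the 2 directions rests on which collagen library is used. The 3 called differences of at least 1 in size were NDUFA4L2 and COX6B2, both lower, and UQCRHL, higher. Levels of the 4 GelMA libraries did not overlap those of the 2 collagen libraries in 18 members (22.5%) above and 19 (23.8%) below. The shares of all genes were 29.9% and 31.7%.

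In complex I, 9 of 37 tested members rose and 6 fell in PANC1. The largest fall of the whole set was in NDUFA4L2, a HIF-1 target whose product is known to lower complex I activity in low oxygen. The gene (ENSG00000185633, chr12:57234903-57240715, minus strand) had -0.36 and -0.44 in 7.5% GelMA, -0.19 and -0.55 in 5% GelMA, and 1.55 and 1.51 in collagen. Both gel percentages lay far under collagen and did not separate from each other. The difference was -1.92 ± 0.23 (SE, adjusted p = 5.94e-05), a 3.78-fold fall, although the GelMA levels are under 1 RPKM, where the fold depends on how low values were treated before deposit. Its paralogue NDUFA4, whose protein is now placed in complex IV, had 7.05 and 7.11 in 7.5% GelMA, 6.81 and 6.69 in 5% GelMA, and 6.77 and 6.58 in collagen. It rose by 0.24 ± 0.07 (adjusted p = 0.0153), and NDUFA4L2 made up 0.556%, 0.717% and 2.75% of the summed RPKM of the pair in 7.5% GelMA, 5% GelMA and collagen. The call of NDUFA4 was lost without collagen replicate 2.

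Among the core subunits that carry the redox centres of complex I, 4 of 6 tested rose in PANC1 and 0 fell. NDUFS1, the largest iron-sulphur subunit, had 6.45 and 6.41 in 7.5% GelMA, 6.34 and 6.36 in 5% GelMA, and 6.15 and 6.04 in collagen. All 4 GelMA libraries lay above both collagen libraries, by 0.30 ± 0.05 (adjusted p = 0.000442). NDUFS8, another iron-sulphur subunit, rose by 0.21, and NDUFV1, the NADH-binding subunit, was at 0.06 ± 0.03 and not called. The accessory subunits were divided, with 5 higher and 6 lower of 31. NDUFC2 had 2.30 and 2.00 in 7.5% GelMA, 1.83 and 2.06 in 5% GelMA, and 1.54 and 1.03 in collagen, a rise of 0.76 ± 0.16 (adjusted p = 0.00238) in a gene that shares 16.3% of its exon bases with the read-through gene NDUFC2-KCTD14. NDUFS5 rose by 0.36 ± 0.06 (adjusted p = 0.000651). NDUFS4, which helps to join the NADH-binding module, had 3.98 and 4.10 in 7.5% GelMA, 3.88 and 3.92 in 5% GelMA, and 4.59 and 4.25 in collagen. The collagen libraries lay apart from each other, and the fall of 0.45 ± 0.11 (adjusted p = 0.00526) was not called without collagen replicate 1 (adjusted p = 0.0767). NDUFB5, NDUFB1 and NDUFA10 fell by 0.31, 0.28 and 0.27.

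**Figure D2:**
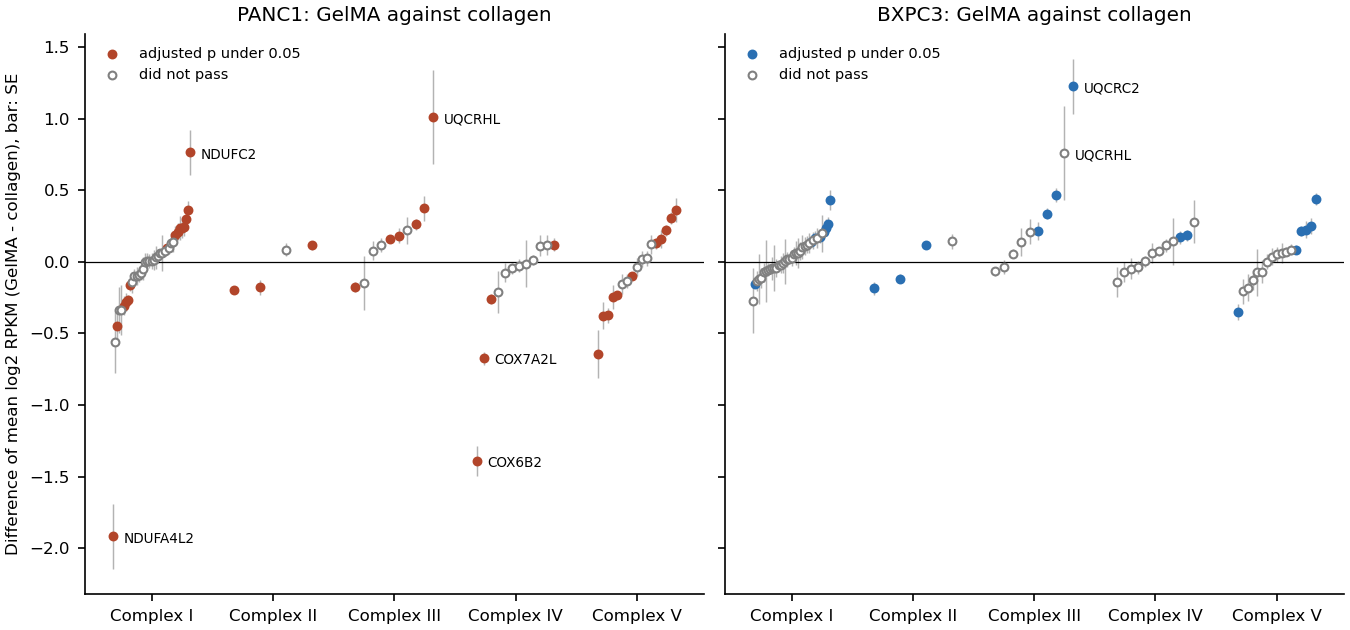
Difference of mean log2 RPKM (GelMA minus collagen) for the 80 tested members, sorted within each complex, in PANC1 (left) and BXPC3 (right). Filled points have an adjusted p under 0.05, open points did not pass, and bars are the SE. In PANC1 the points spread both ways, with NDUFA4L2, COX6B2 and COX7A2L lowest, whereas in BXPC3 UQCRC2 stands highest at 1.23 and 4 filled points lie under 0.

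Complex II, succinate dehydrogenase, split by module in PANC1. SDHA, the flavoprotein that oxidises succinate (ENSG00000073578, chr5:218241-256700, plus strand), had 6.62 and 6.62 in 7.5% GelMA, 6.72 and 6.75 in 5% GelMA, and 6.87 and 6.88 in collagen. The 3 matrices formed 3 steps with no overlap, and SDHA fell by 0.20 ± 0.03 against collagen (adjusted p = 0.000125). SDHB, the iron-sulphur subunit, had 5.81 and 5.88 in 7.5% GelMA, 5.69 and 5.80 in 5% GelMA, and 6.05 and 5.90 in collagen, a fall of 0.18 ± 0.05 (adjusted p = 0.0146) that was lost without collagen replicate 1. The membrane anchor SDHC had 6.23 and 6.25 in 7.5% GelMA, 6.08 and 6.12 in 5% GelMA, and 6.09 and 6.02 in collagen, so only the 7.5% libraries stood clear of collagen. It rose by 0.12 ± 0.03 (adjusted p = 0.0106, lost without collagen replicate 2), and the other anchor, SDHD, was at 0.09 ± 0.05 and not called. Pseudogenes of SDHA and SDHC exist, and reads that fit both copies make small differences in these genes uncertain.

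Complex III had 5 members higher and 1 lower of 10 in PANC1, with a median difference of 0.17. The catalytic subunits with redox centres both rose. UQCRFS1, the Rieske iron-sulphur protein, had 7.26 and 7.38 in 7.5% GelMA, 7.20 and 7.22 in 5% GelMA, and 7.03 and 6.98 in collagen. The GelMA libraries did not overlap collagen, and the rise was 0.26 ± 0.04 (adjusted p = 0.000267). CYC1 rose by 0.18 ± 0.05 (adjusted p = 0.0109, lost without collagen replicate 2). UQCR11, the smallest of its subunits, rose by 0.37 ± 0.09 (adjusted p = 0.00462). The core protein gene UQCRC1 rose by 0.16 ± 0.03 (adjusted p = 0.00134), while UQCRC2, the other core protein, had 4.85 and 4.15 in 7.5% GelMA, 4.79 and 5.27 in 5% GelMA, and 4.94 and 4.88 in collagen. The replicates of UQCRC2 lay far apart in each gel, and its difference of -0.15 ± 0.19 was not called. UQCRHL, an intronless near-copy of the hinge protein gene UQCRH, rose by 1.01 ± 0.33 (adjusted p = 0.0249) while UQCRH fell by 0.17 ± 0.03 (adjusted p = 0.00124). Since the 2 transcripts are nearly identical, reads can be assigned to either, and their opposite differences are uncertain. The UQCRHL call was also lost without any 1 of 3 PANC1 libraries (adjusted p up to 0.170).

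Complex IV had 1 member higher and 3 lower of 12 in PANC1, and 3 genes carried its largest changes. COX6B2, the testis-type isoform of a subunit next to the cytochrome c site (ENSG00000160471, chr19:55349306-55354814, minus strand), had 0.67 and 0.40 in 7.5% GelMA, 1.59 and 1.65 in 5% GelMA, and 2.51 and 2.42 in collagen. The groups formed 3 separate steps, and the fall against collagen was 1.39 ± 0.11 (adjusted p = 3.10e-06), a 2.62-fold fall. The somatic isoform COX6B1 was at 0.11 ± 0.07 and not called, with levels of 6.53 to 6.87, and COX6B2 gave 1.26%, 2.82% and 5.17% of the summed RPKM of the pair in 7.5% GelMA, 5% GelMA and collagen. COX7A2L, also called SCAF1, which tethers complex III to complex IV in supercomplexes (ENSG00000115944, chr2:42333546-42425088, minus strand), had 5.59 and 5.63 in 7.5% GelMA, 5.51 and 5.54 in 5% GelMA, and 6.31 and 6.17 in collagen. All 4 GelMA libraries lay well under both collagen libraries, and the fall of 0.67 ± 0.04 had the smallest adjusted p of the PANC1 set (1.29e-06). Its paralogue COX7A2, which holds the same place in free complex IV, was at 0.12 ± 0.07 and not called, so COX7A2L fell to 34.7% and 36.8% of the pair's summed RPKM in 7.5% and 5% GelMA, against 49.0% in collagen. COX5A fell by 0.26 ± 0.04 (adjusted p = 0.000249). COX6C rose by 0.12 ± 0.04 (adjusted p = 0.0397, a call lost under 9 of the alternatives). The main isoform of subunit 4, COX4I1, was at 0.01 ± 0.03, and COX7B and COX8A were at -0.08 ± 0.07 and -0.01 ± 0.16, none of them called.

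The ATP synthase had 5 members higher and 6 lower of 17 in PANC1. Its catalytic beta subunit ATP5F1B had 9.85 and 9.95 in 7.5% GelMA, 9.86 and 9.92 in 5% GelMA, and 9.61 and 9.56 in collagen, with no overlap between GelMA and collagen. It rose by 0.31 ± 0.04 (adjusted p = 0.000153), while the alpha subunit ATP5F1A, which alternates with it in the head, fell by 0.10 ± 0.03 (adjusted p = 0.0181, lost under 4 alternatives). In the peripheral stalk ATP5PD fell by 0.23 ± 0.03 (adjusted p = 9.46e-05) and ATP5PO, known as OSCP, by 0.64 ± 0.17 (adjusted p = 0.00813, lost without collagen replicate 1), whereas ATP5PB rose by 0.13 ± 0.04 (lost without collagen replicate 2). Of the small membrane subunits ATP5MG rose by 0.36 ± 0.08 (adjusted p = 0.00379) and ATP5MF fell by 0.38 ± 0.09 (adjusted p = 0.00704); both share 8.19% to 8.57% of their exon bases with other genes.

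**Figure D3:**
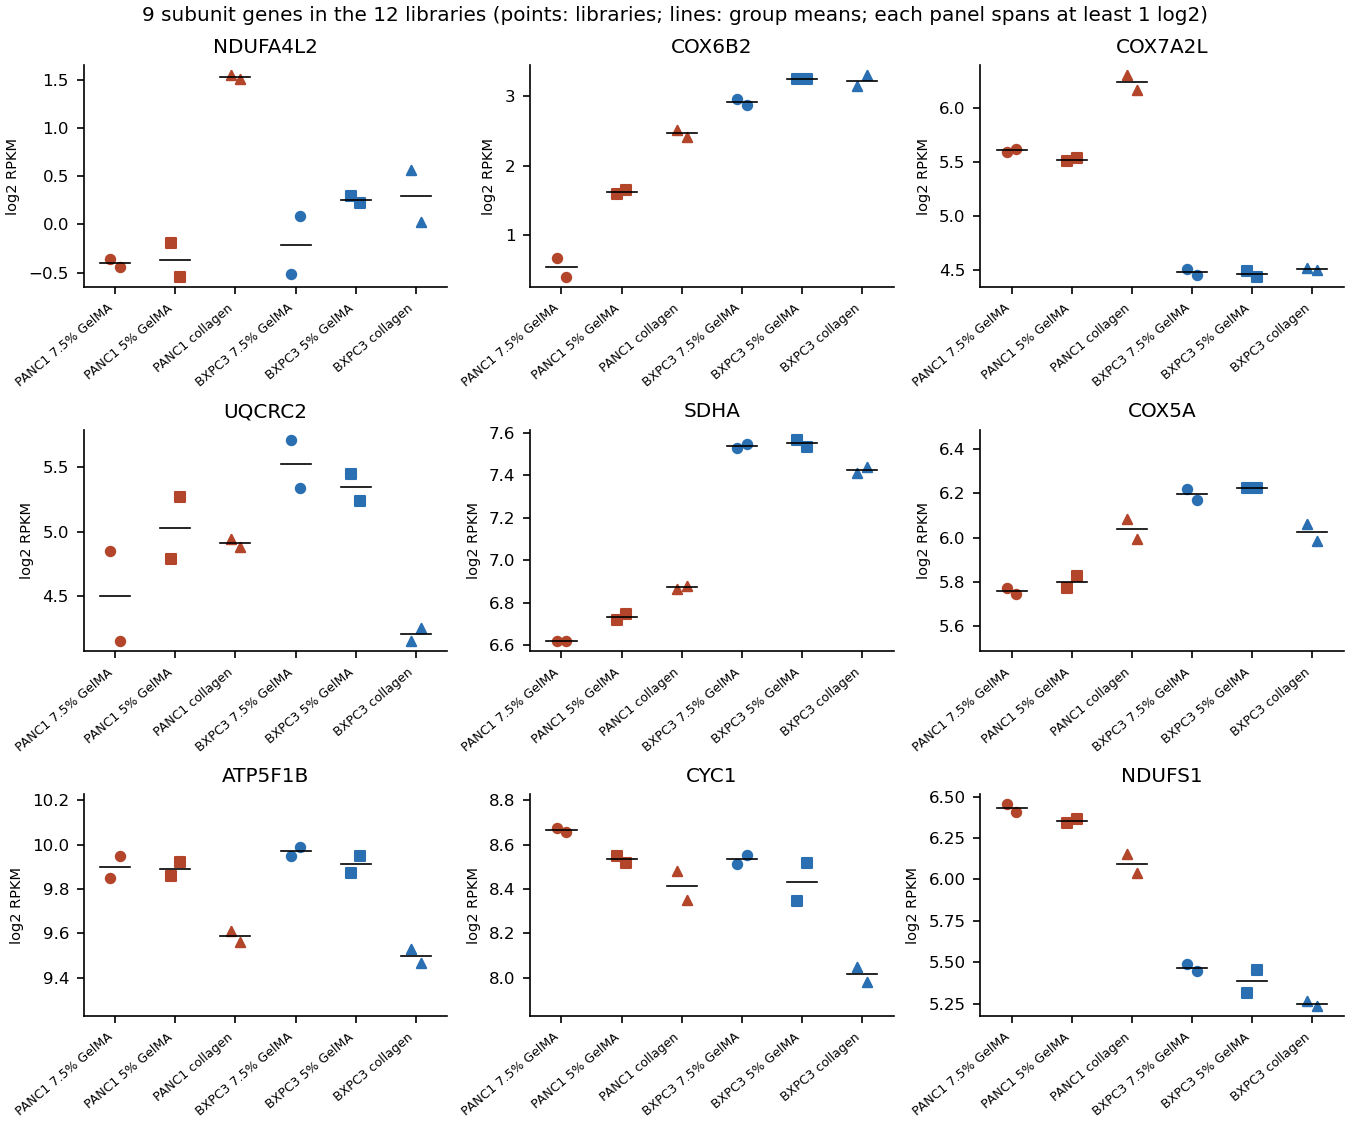
Log2 RPKM of 9 subunit genes in each of the 12 libraries, by group. Points are libraries, lines are group means, red marks PANC1 and blue BXPC3, with circles for 7.5% GelMA, squares for 5% GelMA and triangles for collagen. NDUFA4L2, COX6B2 and COX7A2L stand low in PANC1 in GelMA, UQCRC2 low in BXPC3 in collagen, and SDHA and COX5A move in opposite directions in the 2 lines.

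The same comparison in BXPC3 gave a share of rises near that of all genes and a smaller share of falls. Of 80 members 19 (23.8%) were higher and 4 (5%) lower in GelMA than in collagen, with a background of 19.4% higher and 16.7% lower over all genes. The median difference was 0.06, against 0.01 over all genes tested. Without BXPC3 collagen replicate 2 the count of higher members was 11, and without replicate 1 the count of lower members was 2. Levels did not overlap between GelMA and collagen in 31 members (38.8%) above and 7 (8.75%) below, against 26.8% and 25.2% of all genes.

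UQCRC2, the core protein of complex III, gave the only called BXPC3 difference of at least 1. The gene (ENSG00000140740, chr16:21952660-21983660, plus strand) had 5.71 and 5.33 in 7.5% GelMA, 5.44 and 5.24 in 5% GelMA, and 4.16 and 4.26 in collagen. All 4 GelMA libraries lay well above both collagen libraries, and the rise was 1.23 ± 0.19 (adjusted p = 0.000925), or 2.34-fold. Complex III had 4 members higher and 0 lower of 10 in BXPC3, with a median of 0.21. CYC1 had 8.51 and 8.55 in 7.5% GelMA, 8.35 and 8.52 in 5% GelMA, and 8.05 and 7.98 in collagen, a rise of 0.47 ± 0.05 (adjusted p = 0.000124). UQCRFS1 rose by 0.34 ± 0.04 (adjusted p = 0.000174). UQCRQ, a small subunit of the membrane part, rose by 0.22 ± 0.06 (adjusted p = 0.0248), a call lost under 4 alternatives.

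In the other complexes of BXPC3, 7 members of complex I rose and 1 fell, 1 of complex II rose and 2 fell, 2 of complex IV rose and 0 fell, and 5 of complex V rose and 1 fell. ATP5F1B had 9.95 and 9.99 in 7.5% GelMA, 9.87 and 9.95 in 5% GelMA, and 9.53 and 9.47 in collagen, and rose by 0.44 ± 0.04 (adjusted p = 6.64e-05). NDUFA4 rose by 0.43 ± 0.07 (adjusted p = 0.00124), NDUFS6 by 0.27 ± 0.05 (adjusted p = 0.00241), and ATP5F1D, the delta subunit of the head, by 0.25 ± 0.06 (adjusted p = 0.00650, lost without collagen replicate 1). COX5A and COX5B rose by 0.19 and 0.17, the second not without collagen replicate 2. The 4 falls were in ATP5MC2 (0.35 ± 0.05, adjusted p = 0.000783), SDHD, NDUFA10 and SDHC (fell by 0.18, 0.15 and 0.12), where SDHD was not called without collagen replicate 1, and SDHC not without either. NDUFA4L2, the strongest fall of PANC1, had -0.52 and 0.09 in 7.5% GelMA, 0.30 and 0.22 in 5% GelMA, and 0.56 and 0.02 in collagen of BXPC3. Its BXPC3 groups overlapped, at -0.27 ± 0.23 (adjusted p = 0.383).

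Set side by side, 8 members were called higher in both lines: ATP5F1B, ATP5MC1, ATP5MC3, CYC1, NDUFA4, NDUFS1, NDUFS8 and UQCRFS1. Of these, ATP5F1B, ATP5MC3 and UQCRFS1 were called in both lines under every alternative, NDUFS8 was not recomputed, and the other 4 lost a call in a line under at least 1 alternative. ATP5MC2 and NDUFA10 were called lower in both, and 32 members were called in neither. No share over all genes was computed for calls in both lines or in neither. Whether these counts differ from such a background was not tested. SDHA, COX5A and ATP5PD fell in PANC1 and rose in BXPC3, and SDHC rose in PANC1 and fell in BXPC3. In each of these 4 genes the difference between the lines itself passed the test, although the BXPC3 rise of ATP5PD (0.09 ± 0.03, adjusted p = 0.0456) was lost under 13 alternatives. SDHA had 7.53 and 7.55 in 7.5% GelMA, 7.57 and 7.53 in 5% GelMA, and 7.41 and 7.44 in collagen of BXPC3, a rise of 0.12 ± 0.03 (adjusted p = 0.00541) where PANC1 had a fall.

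Tested for the difference between lines (PANC1 effect of GelMA minus BXPC3 effect), 6 members (7.5%) were higher and 15 (18.8%) lower of 80. The background was 18.5% higher and 20.6% lower. The median was -0.08, against -0.02 over all genes tested. NDUFA4L2 differed by -1.65 ± 0.32 (adjusted p = 0.00268), UQCRC2 by -1.37 ± 0.27 (adjusted p = 0.00278) and COX6B2 by -1.25 ± 0.15 (adjusted p = 0.000144). COX7A2L differed by -0.63 ± 0.06 (adjusted p = 4.58e-05), since it was at -0.04 ± 0.04 in BXPC3. All 4 subunits of complex II were called, SDHA at -0.32 ± 0.04 and SDHB at -0.32 ± 0.07, and the anchors SDHC at 0.23 ± 0.04 and SDHD at 0.27 ± 0.06. NDUFC2 (0.76 ± 0.23) and ATP5MG (0.43 ± 0.12) were the largest positive differences, and both calls were lost without PANC1 collagen replicate 2 or BXPC3 collagen replicate 1. The 2 effects compared here come from separate libraries, but without PANC1 collagen replicate 2 the counts were 2 higher and 23 lower, and without replicate 1 they were 14 higher and 11 lower. Without BXPC3 collagen replicate 1 there were 3 higher.

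The gel percentage was compared next, as 7.5% against 5% GelMA. In PANC1 13 members (16.2%) were higher and 2 (2.5%) lower at 7.5%, with a background of 9.16% higher and 9.56% lower, and the median difference was 0.09, against 0.01 over all genes tested. This one-sided rise was not particular to the members. Of 79 cytosolic ribosomal protein genes, 24 (30.4%) were higher and 0 lower in the same comparison, with a median of 0.12. Levels at 7.5% did not overlap those at 5% in 49 members (61.2%) above and 16 (20%) below, against 35.4% and 30.8% of all genes. COX6B2 fell by a further 1.08 ± 0.12 (adjusted p = 0.000299), and SDHA by 0.11 ± 0.03 (adjusted p = 0.0265, lost under 5 alternatives). Of the 5 small membrane subunits of the ATP synthase, 4 rose. ATP5MG had 2.82 and 2.85 in 7.5% GelMA, and 2.34 and 2.37 in 5% GelMA, a difference of 0.48 ± 0.09 (adjusted p = 0.00669). ATP5MK, known as DAPIT, had 6.44 and 6.36 in 7.5% GelMA, and 6.02 and 6.02 in 5% GelMA, a difference of 0.38 ± 0.06 (adjusted p = 0.00266). ATP5ME and ATP5MJ were higher by 0.37 and 0.35, and NDUFA4, NDUFA3 and UQCRH by 0.33, 0.34 and 0.21. COX7C, of complex IV, was higher by 0.16 ± 0.04 (adjusted p = 0.0282, lost under 5 alternatives). Across the 80 members the PANC1 difference had a Spearman correlation of -0.35 with exon length, a description over genes that share the same 4 libraries. Among the members recomputed under the alternatives, the calls of COX6B2, ATP5MG, ATP5MK and UQCRH held under all of them. A smaller share of all genes tested was called when any 1 of these 4 libraries was left out. The loss of calls given next was thus not confined to the members. With no mean-variance trend in the fit 6 members were higher, and leaving out any 1 of the 4 libraries left 3 to 6, and the 2 lower calls became 1 without 3 of these libraries. Without PANC1 5% GelMA replicate 1 or 2 the counts were 5 and 3, and without PANC1 7.5% GelMA replicate 1 or 2 they were 4 and 6.

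In BXPC3 0 members were higher and 0 lower at 7.5% than at 5% by limma, with a background of 0.0443% higher and 0.0380% lower. At an unadjusted p under 0.05 there were 5 (6.25%), against 9.45% of all genes, and the lowest adjusted p of any member was 0.394. The fit without a trend also gave 0. The median size of the BXPC3 difference was 0.04, against 0.11 in PANC1. Levels did not overlap between the 2 percentages in 14 members (17.5%) above and 14 (17.5%) below in BXPC3, against 20.9% and 20.2% of all genes. A difference between the lines in the effect of percentage was not tested here.

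The ATP synthase c ring offers a view of isoform use. ATP5MC1, ATP5MC2 and ATP5MC3 encode the same mature c protein behind different import sequences, so their summed RPKM can be read as 1 pool. ATP5MC2 had 5.53 and 5.66 in 7.5% GelMA, 5.56 and 5.69 in 5% GelMA, and 6.04 and 5.92 in collagen of PANC1. In BXPC3 ATP5MC2 had 4.90 and 4.90 in 7.5% GelMA, 5.02 and 4.98 in 5% GelMA, and 5.27 and 5.32 in collagen. GelMA and collagen did not overlap in either line, and ATP5MC2 fell by 0.37 ± 0.05 in PANC1 and by 0.35 ± 0.05 in BXPC3, while ATP5MC3 rose by 0.22 ± 0.04 in each line and ATP5MC1 by 0.16 ± 0.06 in PANC1 and 0.23 ± 0.06 in BXPC3. The difference between the lines was not called for any of the 3 (-0.02 for ATP5MC2, 0.01 for ATP5MC3 and -0.06 for ATP5MC1). ATP5MC2 therefore made up 10.9% and 10.7% of the pool in PANC1 in 7.5% and 5% GelMA, against 15.1% in collagen. In BXPC3 it made up 14.4% and 15.7% in 7.5% and 5% GelMA, against 20.8% in collagen. The calls of ATP5MC2 and ATP5MC3 held under every alternative tried, those of ATP5MC1 did not (lost under 7 in PANC1 and 1 in BXPC3).

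**Figure D4:**
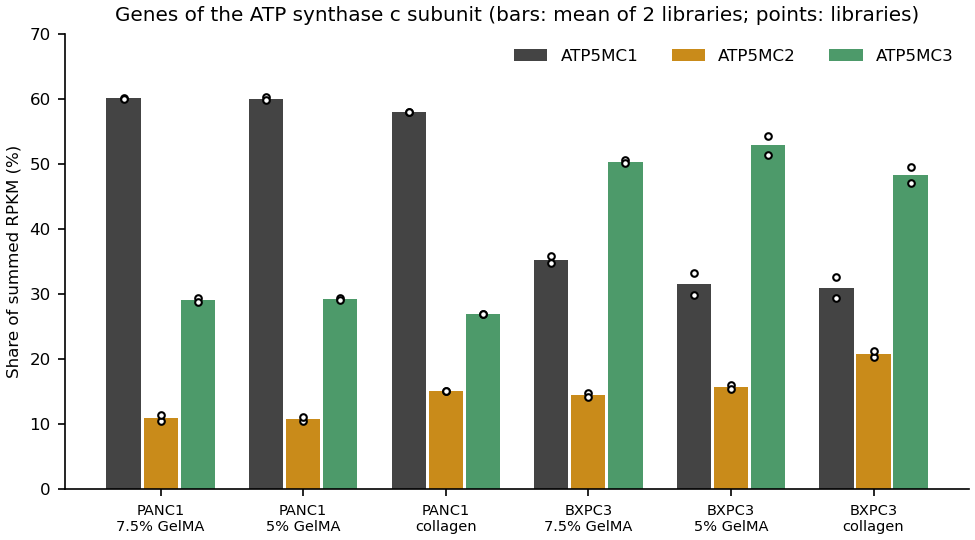
Share of the summed RPKM of the 3 c subunit genes held by each gene (percent, vertical), in the 6 groups. Bars are means of 2 libraries and points are the libraries. ATP5MC2 is lower in both GelMA groups than in collagen in each line, and ATP5MC1 holds 58.0% to 60.1% of the pool in PANC1 but 31.0% to 35.3% in BXPC3.

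Promoter sequences were read for 6 of the genes on which these results turn: SDHA, COX6B2, COX7A2L, ATP5MC1 and ATP5MC2, which differed between matrices or lines, and UQCRFS1, which rose in both lines. Each is the 250 bases before the RefSeq start (the first listed) on GRCh38.p14, 5′ to 3′ on the gene's own strand, and 65 of the 81 members matched a RefSeq promoter. Capitals mark 3 patterns searched on both strands: the palindromic NRF1 consensus site, NRF1 being an activator of many respiratory genes, and ACGTG and GCGTG, the core letters of hypoxia response elements. A further pattern, CCGGAAG, of the ETS type bound by NRF2 (GABP), was searched and is in none of these 6. SDHA lies at chr5:218070-218319 on the plus strand, UQCRFS1 at chr19:29213152-29213401 on the minus strand, COX6B2 at chr19:55354720-55354969 on the minus strand, COX7A2L at chr2:42361218-42361467 on the minus strand, ATP5MC1 at chr17:48892537-48892786 on the plus strand and ATP5MC2 at chr12:53676084-53676333 on the minus strand.
SDHA: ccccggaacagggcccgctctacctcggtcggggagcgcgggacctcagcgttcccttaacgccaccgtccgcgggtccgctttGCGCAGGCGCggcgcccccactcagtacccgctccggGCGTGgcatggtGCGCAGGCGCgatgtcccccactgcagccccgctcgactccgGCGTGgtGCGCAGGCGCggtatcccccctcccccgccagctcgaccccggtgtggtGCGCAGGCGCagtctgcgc
UQCRFS1: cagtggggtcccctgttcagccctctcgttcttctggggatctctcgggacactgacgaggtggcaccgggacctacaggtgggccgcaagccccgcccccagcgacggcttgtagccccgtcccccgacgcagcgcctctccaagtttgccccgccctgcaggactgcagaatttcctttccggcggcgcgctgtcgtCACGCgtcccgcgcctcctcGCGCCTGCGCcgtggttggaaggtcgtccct
COX6B2: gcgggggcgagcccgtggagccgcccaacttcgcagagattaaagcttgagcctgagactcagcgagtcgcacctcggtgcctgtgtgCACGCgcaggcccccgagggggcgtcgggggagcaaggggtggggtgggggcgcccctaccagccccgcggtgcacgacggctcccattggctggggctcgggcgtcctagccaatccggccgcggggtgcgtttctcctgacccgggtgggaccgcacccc
COX7A2L: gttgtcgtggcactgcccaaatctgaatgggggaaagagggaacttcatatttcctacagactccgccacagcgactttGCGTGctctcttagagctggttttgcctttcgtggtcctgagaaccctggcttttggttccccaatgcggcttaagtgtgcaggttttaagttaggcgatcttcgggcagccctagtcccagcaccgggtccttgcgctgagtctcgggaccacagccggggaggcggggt
ATP5MC1: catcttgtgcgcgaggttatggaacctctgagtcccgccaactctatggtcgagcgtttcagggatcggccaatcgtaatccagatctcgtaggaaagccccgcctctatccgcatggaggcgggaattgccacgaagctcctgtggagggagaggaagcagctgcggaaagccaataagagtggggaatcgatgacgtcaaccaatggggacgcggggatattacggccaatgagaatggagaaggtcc
ATP5MC2: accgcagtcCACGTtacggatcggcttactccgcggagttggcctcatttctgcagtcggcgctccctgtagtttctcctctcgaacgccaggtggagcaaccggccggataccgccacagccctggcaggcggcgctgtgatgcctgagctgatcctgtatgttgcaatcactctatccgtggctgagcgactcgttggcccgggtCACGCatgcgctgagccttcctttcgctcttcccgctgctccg

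The SDHA window holds 4 matches to the NRF1 consensus, the UQCRFS1 window 1, and the windows of COX6B2, COX7A2L, ATP5MC1 and ATP5MC2 hold 0. Among the 65 members with a promoter, 14 (21.5%) had the NRF1 consensus at any listed start, against 8.72% of 15843 genes, and 18 (27.7%) had CCGGAAG, against 14% of genes. ACGTG or GCGTG was present in 42 members (64.6%), against 56.8% of genes, which is too common a pair of 5-letter words to set a gene apart. The median GC content was 61.6% in members and 62% in all promoters. Letters that match are a description of these windows and not evidence of binding.

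Between the lines, PANC1 had higher levels than BXPC3 in 47 of 80 members (58.8%) and lower levels in 25 (31.2%) over the 3 matrices, with a background of 50.0% higher and 41.9% lower. The median difference was 0.19, but the median of all genes tested was itself 0.12 higher in PANC1. With each library centred on its median deviation the counts were 40 higher and 30 lower. Levels did not overlap between the 6 PANC1 and the 6 BXPC3 libraries in 33 members (41.2%) above and 16 (20%) below. The shares of all genes were 39.1% and 32.7%.

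Complex I carried most of the members higher in PANC1, with 26 higher and 9 lower of 37 and a median of 0.34. NDUFB10 and NDUFB11, accessory subunits of the membrane arm, were higher by 1.10 ± 0.03 and 1.14 ± 0.03, and NDUFS1 by 0.93 ± 0.03 (adjusted p = 2.49e-10). NDUFB11 had 6.77 to 6.94 in the 6 PANC1 libraries, with a median of 6.89, and 5.56 to 5.82 in the 6 BXPC3 libraries, with a median of 5.76, so the lines did not overlap. NDUFA9 went the other way by -1.62 ± 0.12 (adjusted p = 1.51e-07) and NDUFC2 by -1.06 ± 0.11, both among the genes with shared exons. Complex II again split, with SDHA at -0.76 ± 0.02 and SDHD at -0.20 ± 0.03 lower in PANC1, and SDHB at 0.18 ± 0.03 and SDHC at 0.19 ± 0.02 higher, although SDHB was not called after centring. Complex III had 6 higher and 1 lower of 10, and its largest difference, 2.25 ± 0.22 for UQCRHL (adjusted p = 2.14e-06), carries the doubt about reads shared with UQCRH. Its 1 lower member was UQCRB, at -0.19 ± 0.03.

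In complex IV 5 members were higher and 5 lower in PANC1. COX7A2L was higher by 1.31 ± 0.03 (adjusted p = 1.05e-11), and the excess over BXPC3 was 1.73 ± 0.05 in collagen but 1.06 ± 0.05 in 5% GelMA and 1.13 ± 0.05 in 7.5% GelMA. COX7A2, COX5B, COX7C and COX8A were higher by 0.81 ± 0.05, 0.51 ± 0.03, 0.48 ± 0.03 and 0.40 ± 0.11, and COX4I1 and COX7B were lower, at -0.61 ± 0.02 and -0.36 ± 0.04. COX6B2 was lower at -1.59 ± 0.07 (adjusted p = 2.26e-09), with -0.76 ± 0.12 in collagen, -1.63 ± 0.12 in 5% GelMA and -2.38 ± 0.12 in 7.5% GelMA. COX6C, at 0.00 ± 0.03, was the 1 named member whose direction depended on centring, as described under the processing.

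Complex V had 8 higher and 8 lower of 17. ATP5MK was higher in PANC1 by 1.17 ± 0.04, and ATP5PB, the b subunit of the stalk, was at -0.83 ± 0.03. ATP5MC1 was higher in PANC1 by 2.00 ± 0.04 (adjusted p = 3.84e-12), or 4.01-fold, the smallest adjusted p of any member in any of the 6 comparisons. It had 7.87 to 8.12 in PANC1 libraries and 5.79 to 6.25 in BXPC3 libraries, and held 60.1%, 60.0% and 58.0% of the c subunit pool in PANC1 in 7.5% GelMA, 5% GelMA and collagen. In BXPC3 it held 35.3%, 31.5% and 31.0%, and ATP5MC3 was the larger share there at 50.4%, 52.8% and 48.2%. Of the head subunits 3 of 5 were lower in PANC1, with ATP5F1A at -0.52 ± 0.02, while the beta subunit ATP5F1B, at 0.00 ± 0.03 (adjusted p = 0.979), had 9.56 to 9.95 in PANC1 libraries and 9.47 to 9.99 in BXPC3 libraries.

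**Figure D5:**
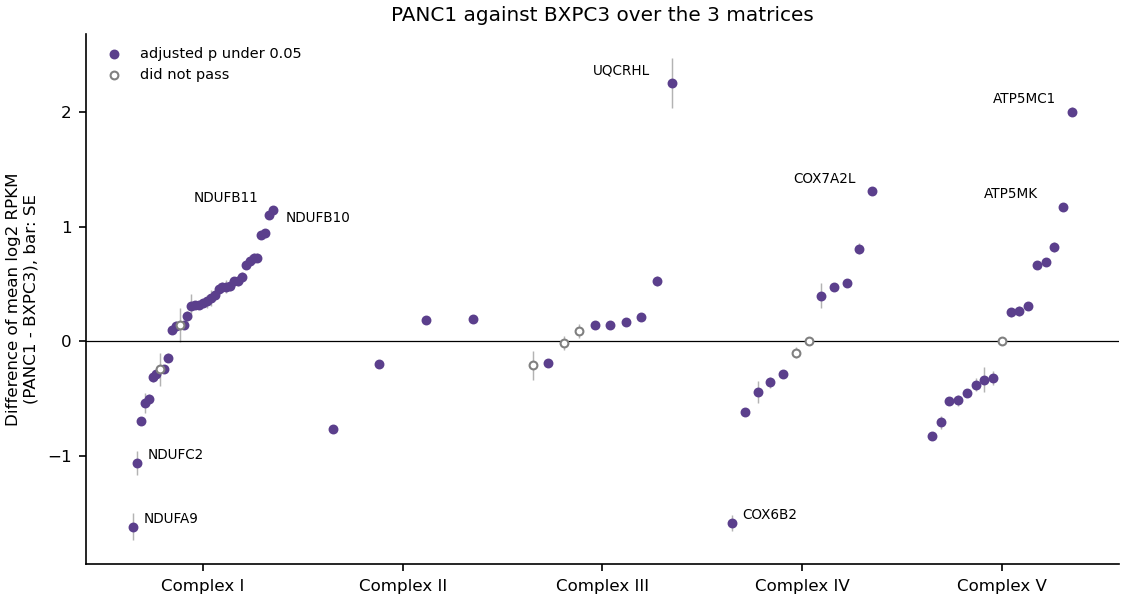
Difference of mean log2 RPKM (PANC1 minus BXPC3, averaged over the 3 matrices) for the 80 tested members, sorted within each complex. Filled points have an adjusted p under 0.05, open points did not pass, and bars are the SE. Complex I lies mostly above 0, complexes IV and V fall on both sides, and UQCRHL (2.25) and ATP5MC1 (2.00) are highest.

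Other genes that serve respiration were followed as lists in GelMA against collagen, and their shares are to be read against the background of all genes tested, 27.7% higher and 27.4% lower in PANC1, and 19.4% higher and 16.7% lower in BXPC3. Of the 13 subunits encoded in mitochondrial DNA, 8 (61.5%) rose and 0 fell in PANC1, and 1 (7.69%) rose and 1 (7.69%) fell in BXPC3 (medians 0.23 in PANC1 and 0.03 in BXPC3). MT-ATP8 and MT-ND3 rose by 1.39 ± 0.14 and 1.07 ± 0.06 in PANC1, and were at 0.20 ± 0.14 and 0.10 ± 0.06 in BXPC3, not called. MT-ATP6 rose by only 0.23 ± 0.04 in PANC1 and was at -0.10 ± 0.04 in BXPC3, not called. MT-ND6 rose in both lines, by 1.03 ± 0.07 in PANC1 and 0.57 ± 0.07 in BXPC3, and MT-ND4L rose by 0.82 ± 0.08 in PANC1 and fell by 0.35 ± 0.08 in BXPC3. MT-CO1 had 13.74 in all 12 libraries, the top value of the table, so quantile normalization leaves no room to see a change in it. MT-CO2 and MT-ND4 were also at 0.00 ± 0.05 and 0.00 ± 0.06 in PANC1. How far normalization limits the differences of the mitochondrially encoded genes was not tested. The sources used here do not give how reads were assigned between neighbouring mitochondrial genes. The unequal PANC1 differences of MT-ATP8 and MT-ATP6, and of MT-ND4L and MT-ND4, are therefore uncertain.

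Of 46 tested assembly factors, 17 (37%) rose and 9 (19.6%) fell in PANC1, and 19 (41.3%) rose and 4 (8.7%) fell in BXPC3, so the falls were a smaller share than in the background in both lines. NDUFAF5, an assembly factor of complex I, rose by 0.71 ± 0.08 in PANC1 and 0.31 ± 0.08 in BXPC3, and NDUFAF4, another, by 0.37 ± 0.07 in PANC1 and 0.65 ± 0.07 in BXPC3. NDUFAF8 rose by 0.67 ± 0.07 in BXPC3 and was at 0.17 ± 0.07 in PANC1, not called, and SDHAF1, a factor of complex II, rose by 0.54 ± 0.09 in PANC1 and was at 0.24 ± 0.09 in BXPC3, not called. COX19, a copper-handling factor of complex IV, and SDHAF4 fell by 0.64 ± 0.08 and 0.48 ± 0.18 in PANC1, and neither was called in BXPC3 (-0.16 ± 0.08 and -0.28 ± 0.18). COX20, a factor of complex IV, rose by 0.52 ± 0.05 in PANC1 and fell by 0.26 ± 0.05 in BXPC3, and COA1 fell by 0.27 ± 0.04 in BXPC3 and was at -0.03 ± 0.04 in PANC1, not called.

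Of 17 genes for electron carriers and coenzyme Q synthesis, 2 (11.8%) rose and 5 (29.4%) fell in PANC1, and 1 (5.88%) rose and 2 (11.8%) fell in BXPC3, all shares near or under the background. CYCS, cytochrome c itself, rose in both, by 0.29 ± 0.04 in PANC1 (adjusted p = 7.90e-05) and 0.49 ± 0.04 in BXPC3 (adjusted p = 1.80e-05). COQ5, a methyltransferase of coenzyme Q synthesis, fell in both, by 0.50 ± 0.07 in PANC1 and 0.24 ± 0.07 in BXPC3. DHODH, which feeds electrons from pyrimidine synthesis into coenzyme Q, fell by 0.66 ± 0.10 in PANC1 and was at -0.15 ± 0.10 in BXPC3, not called. COQ2 rose by 0.31 ± 0.08 in PANC1 (0.01 ± 0.08 in BXPC3, not called), and COQ4 fell by 0.25 ± 0.07 in BXPC3 (0.12 ± 0.07 in PANC1, not called).

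Of 14 TCA cycle genes, 8 (57.1%) rose and 2 (14.3%) fell in PANC1, and 9 (64.3%) rose and 1 (7.14%) fell in BXPC3. FH, fumarase, rose by 0.63 ± 0.06 in PANC1 and by 0.26 ± 0.06 in BXPC3. OGDH, of the oxoglutarate dehydrogenase, rose by 0.39 ± 0.04 in PANC1 and by 0.33 ± 0.04 in BXPC3, and IDH3B, of the isocitrate dehydrogenase that makes NADH, by 0.48 ± 0.04 in PANC1 and by 0.13 ± 0.04 in BXPC3. IDH2 and IDH3G fell by 0.89 ± 0.08 and 0.17 ± 0.04 in PANC1, and were at -0.23 ± 0.08 and 0.03 ± 0.04 in BXPC3, not called. SUCLG2 rose by 0.29 ± 0.04 in PANC1 and fell by 0.14 ± 0.04 in BXPC3. Of 15 tested regulators of mitochondrial biogenesis, 4 (26.7%) rose and 6 (40%) fell in PANC1, and 7 (46.7%) rose and 0 fell in BXPC3, where the PANC1 rises were at the background share. MYC fell by 0.74 ± 0.03 in PANC1 and rose by 0.32 ± 0.03 in BXPC3, and GABPB1, a subunit of NRF2, fell by 0.42 ± 0.06 in PANC1 and rose by 0.23 ± 0.06 in BXPC3. The nuclear receptor gene ESRRA rose by 0.32 ± 0.04 in PANC1 and by 0.21 ± 0.04 in BXPC3, and TWNK, the helicase of mitochondrial DNA, by 0.30 ± 0.05 in PANC1 and by 0.33 ± 0.05 in BXPC3. PPRC1 rose by 0.36 ± 0.06 in BXPC3 and was at 0.15 ± 0.06 in PANC1, not called.

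Among 8 HIF targets that act on respiration, 3 (37.5%) rose and 5 (62.5%) fell in PANC1, and 1 (12.5%) rose and 3 (37.5%) fell in BXPC3 (medians -1.32 in PANC1 and -0.26 in BXPC3). The list was not split by the direction in which HIF changes each gene, so these shares do not measure HIF activity. PDK1, the kinase that shuts pyruvate out of the mitochondrion, had 2.67 and 2.80 in 7.5% GelMA, 4.55 and 4.43 in 5% GelMA, and 5.92 and 5.91 in collagen of PANC1. It fell there by 2.30 ± 0.09 (adjusted p = 5.25e-08), and in BXPC3 by 1.41 ± 0.09 (adjusted p = 1.14e-05). MXI1, an antagonist of MYC, fell by 1.73 ± 0.08 in PANC1 and by 1.23 ± 0.08 in BXPC3. BNIP3, a receptor that marks mitochondria for removal, fell by 2.04 ± 0.30 in PANC1 and was at -0.48 ± 0.30 in BXPC3, not called. Over the 3 matrices BNIP3 was 11.98 ± 0.20 higher in PANC1 than in BXPC3, so its BXPC3 difference rests on far lower levels. The 2 lines cannot be compared closely in this gene. ISCU, the scaffold of iron-sulphur cluster assembly, rose by 0.22 ± 0.05 in PANC1 and by 0.36 ± 0.05 in BXPC3. HIGD1A and ATP5IF1, the inhibitor of the ATP synthase, rose by 0.28 ± 0.08 and 0.27 ± 0.07 in PANC1 and were at 0.07 ± 0.08 and -0.03 ± 0.07 in BXPC3, not called. The NDUFA4L2 fall in PANC1 stood beside these, and the part of oxygen supply in any of these results was not tested. Of 79 cytosolic ribosomal protein genes, another family of short and abundant transcripts, 2 (2.53%) rose and 62 (78.5%) fell in PANC1, and 6 (7.59%) rose and 40 (50.6%) fell in BXPC3 (medians -0.41 in PANC1 and -0.12 in BXPC3), and their part in the respiratory results was not tested.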

How the data were processed

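Poly-A RNA of PANC1 and BXPC3 in 3 matrices was sequenced, and the authors deposited 1 table of log2 RPKM for 12 libraries and 16299 genes. Reads were aligned with HISAT2 2.1.0 and counted with HTSeq on GRCh38 (hg38), per the submitters' processing notes. The sources used here do not give the annotation, gene lengths, strand setting, filter or any offset before the log. The top 13758 ranks of the sorted deposited log2 values were equal in all libraries within 0.05, as quantile normalization leaves them. Shifts common to all genes therefore cannot be seen. The ranks that were not equal numbered 2382, all of them among the lowest 2541. The depth per library is unknown.

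Symbols came from a gene name table for 16250 IDs and from GENCODE 29 for 49. Members and lists were chosen with earlier results of these data known. Genes at 0 or more (1 RPKM) in at least 2 libraries were tested with limma 3.58.1 (R 4.3.3), with 1 mean for each of the 6 groups, a mean-variance trend, 6 residual degrees of freedom and Benjamini-Hochberg adjustment. The procedure was tested on simulated data. Summaries used Python 3.11.15 and pandas 2.3.3. SE is limma's moderated error of the contrast, and no pseudocount was added.

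Members are named by a rule: a list of 30 members, the 2 highest and 2 lowest called differences in each of complexes I, III, IV and V (1 each in complex II) in each comparison, and every called difference of at least 1. From the companion lists the 2 highest and 2 lowest called in each line are named. NDUFS8, NDUFB1, NDUFB5, ATP5ME and MT-CO1 were named after their values were seen, to complete a count. So were MT-CO2 and MT-ND4, to stand beside MT-CO1, and MT-ATP6, to stand beside MT-ATP8. Other members outside the rule enter the counts and figures.

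Replicate numbers were checked for pairing: over 15 pairs of groups, the correlation of same-numbered deviations was -0.05 to 0.08, so no block was used. Alternatives were no filter, a filter at 4 RPKM, log2(RPKM + 1), no trend, only 1 line in the fit, centring of libraries, the replicate block, and leaving out each library.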

Additional observations from a re-analysis of the deposited data

Results flagged for a closer look

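For 19 members the GelMA effect in PANC1 differed from that in BXPC3 by limma's test of the difference itself (PANC1 effect minus BXPC3 effect, log2 RPKM). Negative differences were found for NDUFA4L2 (-1.65), UQCRC2 (-1.37), COX6B2 (-1.25), COX7A2L (-0.63), NDUFS4 (-0.51), COX5A (-0.45), NDUFS6 (-0.34), SDHB (-0.32), ATP5PD (-0.32), SDHA (-0.32), CYC1 (-0.28), ATP5F1D (-0.23), COX5B (-0.20) and ATP5F1A (-0.17). Positive differences were found for SDHC (0.23), NDUFS5 (0.25), SDHD (0.27), ATP5MG (0.43) and NDUFC2 (0.76).

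The calls of ATP5F1D, NDUFS5 and COX5B were each lost under 9 to 12 of the alternatives, and those of NDUFS4, NDUFC2 and ATP5MG under 2 each, both of them the loss of a collagen library. The other 13 held under every alternative that gives this difference. The cause of the differences was not tested.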

How the results depend on the processing

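Leaving out each library in turn gave 9 to 28 members higher and 11 to 23 lower in PANC1 in GelMA against collagen, 11 to 23 higher and 2 to 5 lower in BXPC3, 3 to 17 higher and 1 to 2 lower in PANC1 at 7.5% against 5% GelMA, 2 to 14 higher and 11 to 23 lower for the difference between lines, and 46 to 47 higher and 25 to 27 lower in PANC1 against BXPC3. Without a mean-variance trend 6 members were higher in PANC1 at 7.5% against 5% GelMA. With members sharing at least 5% of exon bases left out, an alternative chosen after seeing the data, 2 were lower in BXPC3 in GelMA, 1 was lower in PANC1 at 7.5% GelMA, 3 were higher for the difference between lines and 16 were lower in PANC1 against BXPC3, since fewer members were counted. Of 306 recomputed member values 129 were called, and 88 of these were lost under no alternative. COX6C in PANC1 against BXPC3 reversed to -0.11 with libraries centred on the median deviation (limma, adjusted p = 0.00487). The fit with only the compared line gives no value for comparisons of the lines. Unknown depth and 2 libraries a group limit what small differences can be called. In GelMA against collagen in each line, leaving out a library of that line also lowered the share of all genes called. The same held for PANC1 at 7.5% against 5% GelMA with any of the libraries compared left out.

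With the replicate block, which the numbers do not justify, 20 members were higher and 20 lower in PANC1 in GelMA, 20 and 4 in BXPC3, 14 and 2 in PANC1 at 7.5% against 5% GelMA, 0 and 0 in BXPC3, 7 and 13 for the difference between lines, and 47 and 25 in PANC1 against BXPC3. The block changed the call of 4 of 306 member values.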
